A study of Mus musculus with 2 samples.

Results

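The autophagy genes compared here comprised every symbol of the table that starts with Atg and a digit, together with 22 named genes of autophagosome formation and cargo selection. They numbered 40 of 34714 genes. The choice was made by name and used no measured value, though earlier results of these data were known when it was made. RNA was sequenced from bone marrow-derived macrophages of C57BL/6 mice after 24 h with the agonistic anti-CD40 antibody FGK45 or with IgG. Both cultures had been grown in macrophage colony-stimulating factor at 20 ng/mL, and the labels name no further allele or agent. Each treatment is represented by 1 library, so replicate error is unknown, no test was possible, and every "higher" or "lower" below describes these libraries. The labels give no antibody dose and do not say from how many animals the marrow came.

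Autophagy encloses cytoplasm, organelles or microbes in a double membrane that fuses with lysosomes. A kinase complex around ULK1 starts the process, a lipid kinase complex around beclin 1 marks the membrane with phosphatidylinositol 3-phosphate, and 2 ubiquitin-like conjugation systems attach small proteins of the ATG8 family to the growing membrane. Cargo receptors bind ubiquitin or organelles on one side and ATG8 proteins on the other. In macrophages the same conjugation machinery also modifies phagosomes and restrains inflammasome activity, and CD40 ligation has been studied as a trigger of autophagic killing of intracellular parasites.

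The ATG8 family held the most abundant of these transcripts, and its close relatives lay on opposite sides of equality, so the coding ends of its mouse genes are shown. ATG4 proteases cut each newly made protein after a glycine, which is then joined to lipid. The sequences are the last 42 bases of the GENCODE coding sequence (build GRCm38), stop codon included, with the glycine codon in capitals.
Map1lc3a: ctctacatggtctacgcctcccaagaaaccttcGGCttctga
Map1lc3b: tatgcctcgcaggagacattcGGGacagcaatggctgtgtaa
Gabarap: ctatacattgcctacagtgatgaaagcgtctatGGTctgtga
Gabarapl1: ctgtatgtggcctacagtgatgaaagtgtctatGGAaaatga
Gabarapl2: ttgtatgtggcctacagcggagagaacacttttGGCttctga
Map1lc3b carries 5 codons between the glycine codon (number 120) and its stop, whereas the other 4 genes carry 1. Over the aligned coding sequences, Map1lc3a and Map1lc3b were 77.5% identical in bases, Gabarap and Gabarapl1 74.9%, and Map1lc3a and Gabarapl1 57.4%, the lowest of the 10 pairs. No pair of these genes matched each other over 100 bases at 95% identity.

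All 40 autophagy genes reached 1 FPKM (fragments per kilobase of transcript, scaled to library depth) in at least 1 library, and 39 did so in both. Their median level was 9.02 FPKM with anti-CD40 and 7.95 FPKM with IgG, against 7.41 and 6.69 FPKM over the 9591 genes that passed the same limit, called counted genes below. The group as a whole lay close to the middle of the transcriptome. Its median log2 ratio of (FPKM + 1), anti-CD40 over IgG, was 0.16, with quartiles at -0.08 and 0.27. Over all counted genes the median was 0.12, with quartiles at -0.06 and 0.27. Because of that shift toward anti-CD40, the intervals are also set against the median FPKM ratio of 1.11, whereas "higher" and "lower" for single genes are against 1.

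On the log2(FPKM + 1) scale, 0 of the 40 autophagy genes were 1.5-fold higher, against 2.68% of all counted genes. None was 1.5-fold lower (0 of 40, against 2.15% of all genes) or 2-fold apart in either direction (0 of 40, against 0.563%). Log2 ratios above the all-gene median were seen for 21 of 40 autophagy genes, with 50% of all genes above it by construction. Within 1.2-fold of the median lay 30 of 40, or 75%, against 70.4% of all genes. By FPKM alone, 26 of 40 were higher with anti-CD40 (67.8% of all genes) and 14 lower (32.2% of all genes). Centred on the all-gene median, the same split was 21 and 19, and 2 of 40 genes (Atg4c and Map1lc3a) came out 1.5-fold lower, against 4.23% of all genes. These shares were near the background. What follows is therefore an account of small differences among partners and paralogs. By role, the median log2 ratio ran from -0.13 in the conjugation system to 0.29 in the soluble cargo receptors.

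**Figure D1:**
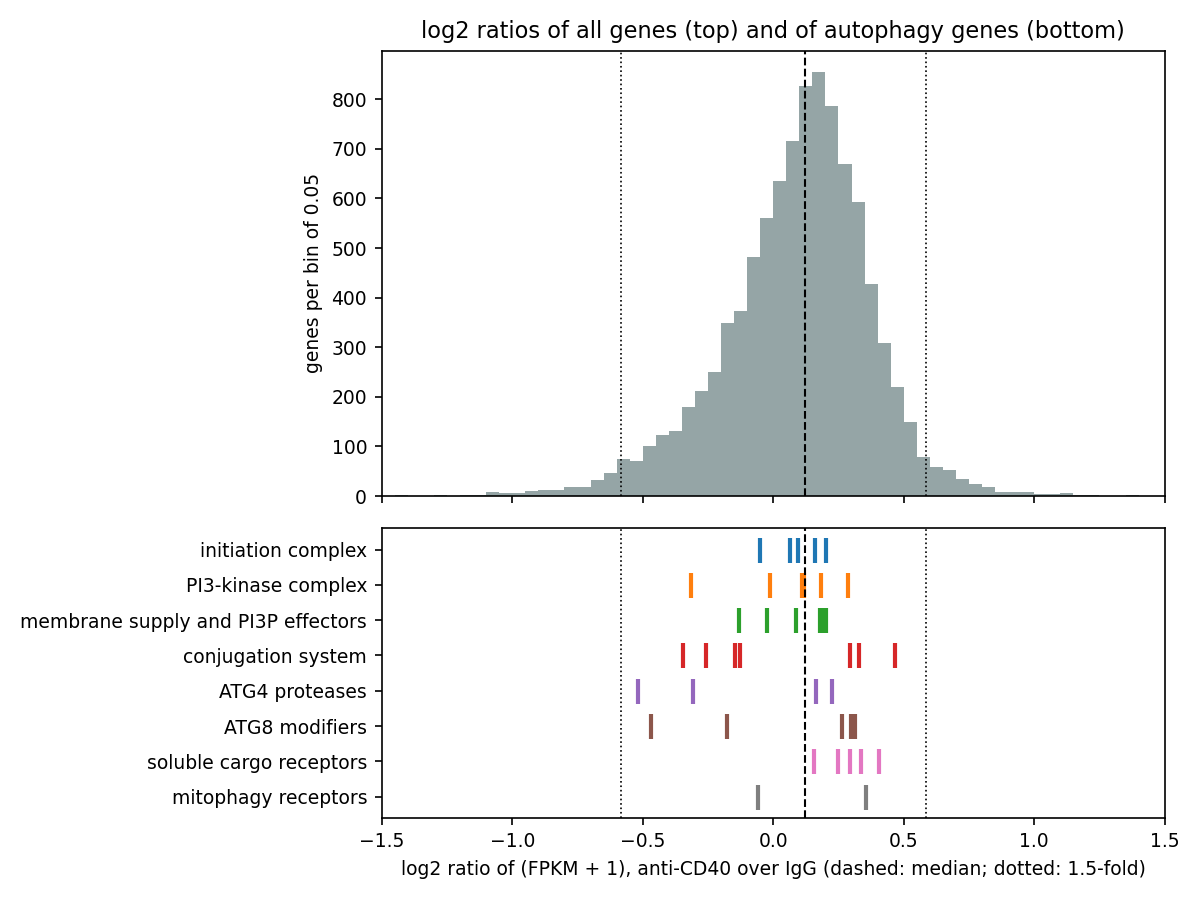
Log2 ratios of (FPKM + 1), anti-CD40 over IgG, for the 9591 counted genes (top, genes per bin of 0.05, with genes beyond the axis not drawn) and for the 40 autophagy genes by role (bottom, 1 tick per gene). The dashed line is the all-gene median of 0.12 and the dotted lines mark 1.5-fold; every tick lies between the dotted lines, from -0.52 (Atg4c) to 0.47 (Atg5).

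Counting error was read from approximate fragment numbers, which ran from 43 (Atg4c with anti-CD40) to 19769 (Gabarap with IgG), with medians of 684.5 and 536.5 per autophagy gene with anti-CD40 and IgG. The 95% interval of the FPKM ratio lay wholly above 1 for 18 genes (40.1% of the 9323 counted genes with a length) and wholly below 1 for 9 (15.4%). Against the median ratio of 1.11, it lay wholly above for 8 genes (21.3% of the same genes) and wholly below for 12 (25.6%). The 8 above were Atg5, Atg12, Uvrag, Map1lc3b, Gabarapl1, Gabarapl2, Sqstm1 and Tax1bp1. The 12 below were Atg101, Becn1, Atg14, Atg2a, Atg7, Atg16l1, Atg16l2, Atg4b, Atg4c, Gabarap, Map1lc3a and Bnip3l. Ulk1, Ambra1, Atg2b, Atg9a, Atg3, Atg4d, Calcoco1, Optn, Nbr1 and Bnip3 had intervals above 1 that held the median ratio. Where these are called higher below, they are not set apart from the shift of all genes. These intervals hold counting error alone and leave out any variation among cultures.

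**Figure D2:**
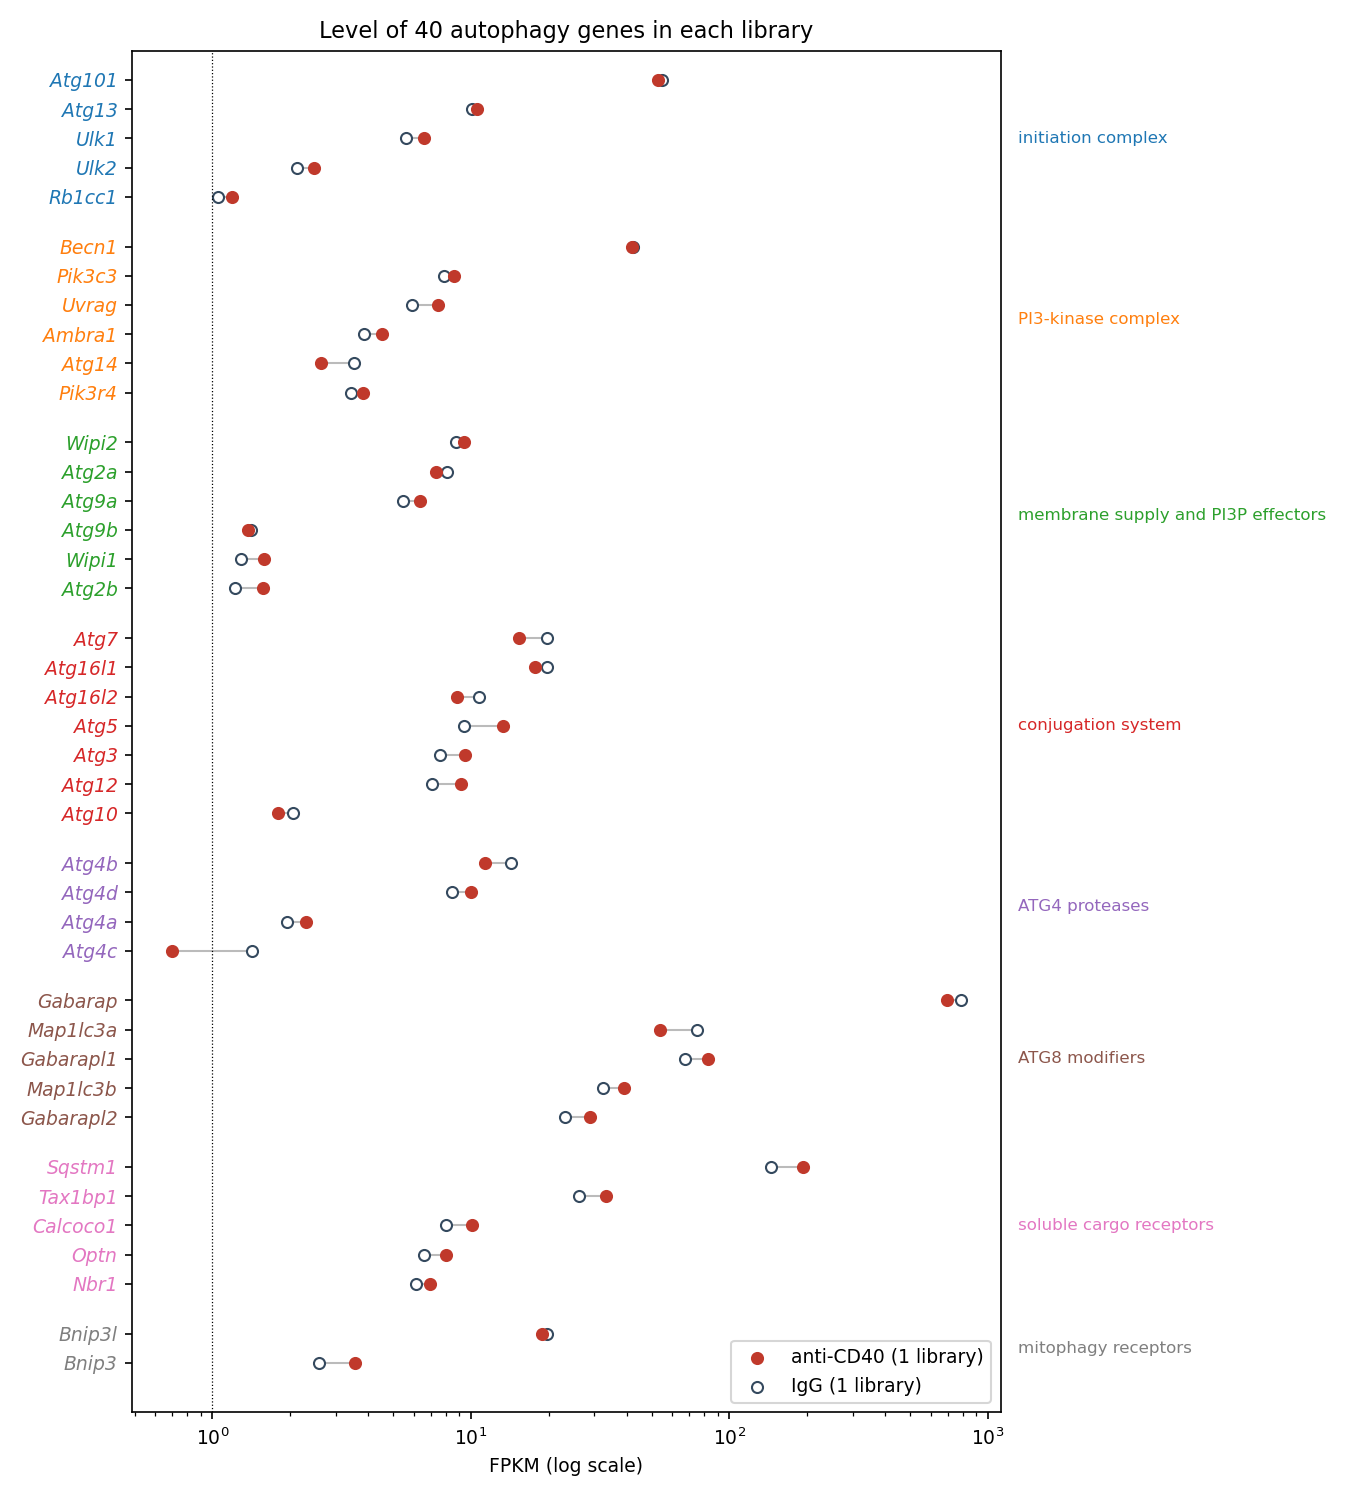
FPKM (log scale) of the 40 autophagy genes with anti-CD40 (filled) and with IgG (open), 1 library each, grouped by role. Gabarap stands highest, at 697 and 787 FPKM, and Atg4c is the 1 gene that lies left of the dotted line at 1 FPKM, in the anti-CD40 library.

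In the initiation complex, 4 of 5 genes had the higher FPKM with anti-CD40, against 67.8% of all counted genes, and 2 of 5 lay above the all-gene median. The summed level was nearly equal, at 73.7 FPKM with anti-CD40 and 73.6 FPKM with IgG. Atg101, which encodes a stabilising partner of ATG13, was the most abundant at 52.9 FPKM with anti-CD40 and 54.8 FPKM with IgG. Atg13, an adaptor that recruits the kinase, had 10.6 FPKM with anti-CD40 and 10.1 FPKM with IgG. Neither gene's interval left 1, and that of Atg101 (FPKM ratio 0.965, interval 0.894 to 1.04) lay below the all-gene median ratio. The kinase gene Ulk1 had 6.60 FPKM with anti-CD40 and 5.60 FPKM with IgG, and its paralog Ulk2 had 2.48 FPKM with anti-CD40 and 2.12 FPKM with IgG. Both kinases were higher with anti-CD40 by nearly the same factor, so Ulk1 exceeded Ulk2 by 2.66 times with anti-CD40 and by 2.65 times with IgG. Ulk1 was the 1 gene of the complex with an interval above 1, at 1.18-fold higher (interval 1.05 to 1.32). Rb1cc1, the gene of the scaffold FIP200, was near the floor of the list at 1.19 FPKM with anti-CD40 and 1.05 FPKM with IgG (FPKM ratio 1.13, interval 0.907 to 1.41).

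The lipid kinase complex was divided between its alternative subunits. Beclin 1 recruits either ATG14, which directs the kinase to forming autophagosomes, or UVRAG, which serves endosomes and later maturation. Atg14 (chr14:47540893-47568434, RefSeq coordinates on GRCm38.p6 here and below) had 2.63 FPKM with anti-CD40 and 3.52 FPKM with IgG, 1.34-fold lower (interval 1.10 to 1.63). Uvrag (chr7:98886742-99141167) had 7.42 FPKM with anti-CD40 and 5.90 FPKM with IgG, 1.26-fold higher (interval 1.13 to 1.41). The 2 subunits thus lay on opposite sides of 1, and Uvrag stood at 2.82 times the level of Atg14 with anti-CD40, against 1.67 times with IgG. A ratio of 2 genes within a library does not depend on how the libraries are scaled.

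The shared subunits of that complex differed less. Becn1 had 42.1 FPKM with anti-CD40 and 42.5 FPKM with IgG (FPKM ratio 0.990, interval 0.945 to 1.04). The catalytic subunit Pik3c3 had 8.59 FPKM with anti-CD40 and 7.88 FPKM with IgG, and the regulatory subunit Pik3r4 had 3.83 FPKM with anti-CD40 and 3.45 FPKM with IgG. Their ratios of 1.09 and 1.11 were close to the all-gene median ratio. Ambra1, which encodes an adaptor that couples beclin 1 to the initiation complex, had 4.52 FPKM with anti-CD40 and 3.86 FPKM with IgG, 1.17-fold higher (interval 1.02 to 1.35).

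Genes of membrane supply and of phosphatidylinositol 3-phosphate reading were low to moderate in level. Wipi2, whose protein recruits ATG16L1 to the membrane, had 9.36 FPKM with anti-CD40 and 8.75 FPKM with IgG, and Wipi1 had 1.59 FPKM with anti-CD40 and 1.29 FPKM with IgG. Neither WIPI gene had an interval that left 1 (0.919 to 1.25 for Wipi2 and 0.844 to 1.83 for Wipi1). Among the lipid transfer proteins, Atg2a had 7.30 FPKM with anti-CD40 and 8.08 FPKM with IgG, 1.11-fold lower (interval 1.01 to 1.21), while Atg2b had 1.57 FPKM with anti-CD40 and 1.23 FPKM with IgG, 1.28-fold higher (interval 1.05 to 1.56). The paralogs lay on opposite sides of 1, with Atg2a at 4.66 times Atg2b with anti-CD40 and 6.58 times with IgG. The scramblase gene Atg9a had 6.34 FPKM with anti-CD40 and 5.44 FPKM with IgG, 1.17-fold higher (interval 1.02 to 1.33), and Atg9b had 1.37 FPKM with anti-CD40 and 1.41 FPKM with IgG (FPKM ratio 0.972, interval 0.739 to 1.29).

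The conjugation system held the autophagy gene with the highest log2 ratio and one of the lowest. Atg5 (chr10:44268322-44364299), whose protein is joined to ATG12 to form part of the ligase for ATG8 proteins, had 13.3 FPKM with anti-CD40 and 9.37 FPKM with IgG, 1.42-fold higher (interval 1.26 to 1.62). Its log2 ratio of 0.47 lay at percentile 93.7 of all counted genes. Atg12, the ubiquitin-like partner, was also higher, at 9.17 FPKM with anti-CD40 and 7.10 FPKM with IgG, 1.29-fold higher (interval 1.16 to 1.43). Both Atg16l genes, by contrast, were lower. Atg16l1, which places the ligase on membranes, had 17.7 FPKM with anti-CD40 and 19.7 FPKM with IgG, 1.11-fold lower (interval 1.02 to 1.21), and its paralog Atg16l2 had 8.87 FPKM with anti-CD40 and 10.8 FPKM with IgG, 1.22-fold lower (interval 1.12 to 1.32). Per length, Atg5 stood at 0.753 times Atg16l1 with anti-CD40 and at 0.475 times with IgG.

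The enzymes upstream of the ligase were split in the same way. Atg7 (chr6:114643127-114860604), the activating enzyme for both ATG12 and the ATG8 proteins, had 15.4 FPKM with anti-CD40 and 19.8 FPKM with IgG, 1.29-fold lower (interval 1.17 to 1.42). Atg3, the enzyme that hands ATG8 proteins to lipid, had 9.51 FPKM with anti-CD40 and 7.57 FPKM with IgG, 1.26-fold higher (interval 1.08 to 1.47). Their ratio, Atg3 over Atg7, was 0.619 with anti-CD40 and 0.383 with IgG. Atg10, the corresponding enzyme for ATG12, was scarce at 1.80 FPKM with anti-CD40 and 2.06 FPKM with IgG, and its interval from 0.590 to 1.25 held 1. Of the conjugation genes, 3 were higher (67.8% of all counted genes) and 4 lower (32.2%). Their summed level was 75.8 FPKM with anti-CD40 and 76.4 FPKM with IgG.

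**Figure D3:**
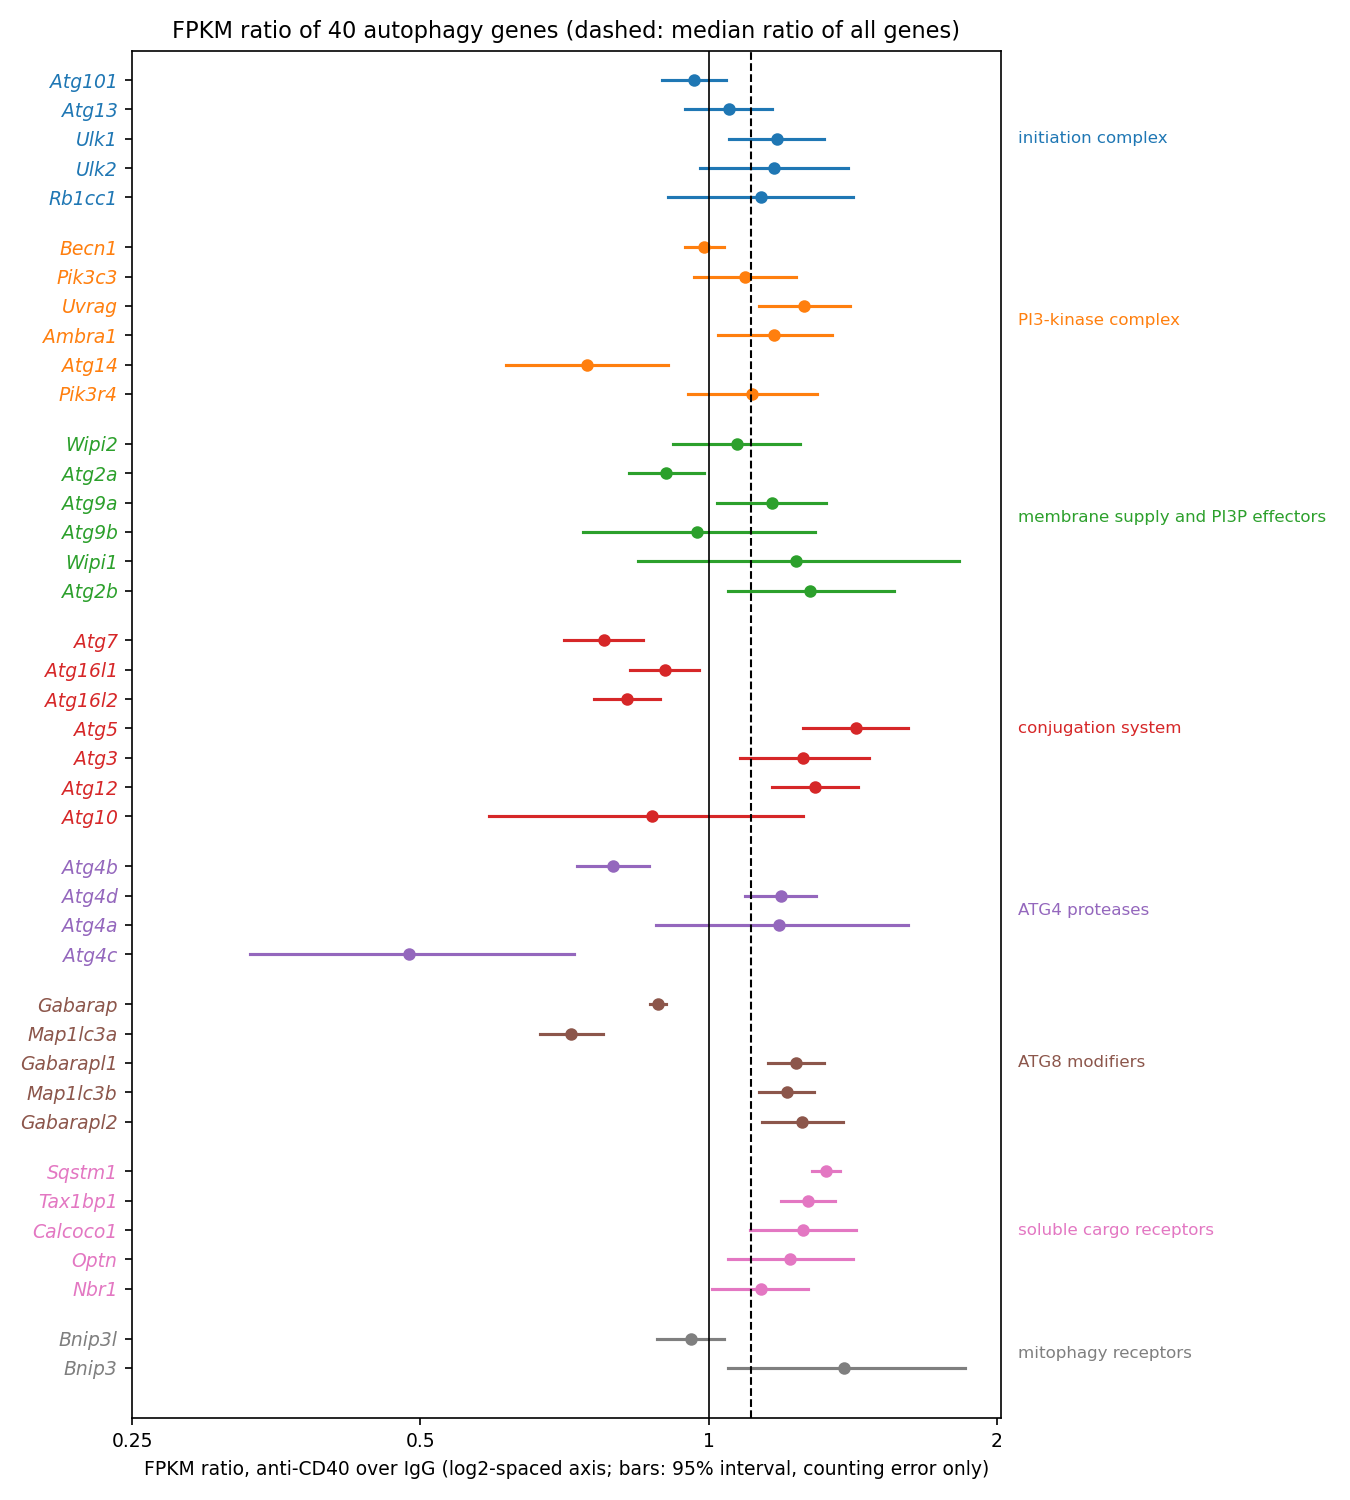
FPKM ratio of each autophagy gene, anti-CD40 over IgG (log2-spaced axis), grouped by role, with 95% intervals that cover counting error only. The solid line is 1 and the dashed line the all-gene median ratio of 1.11; the 5 soluble cargo receptors lie to the right of the dashed line, while the conjugation genes, the ATG4 proteases and the ATG8 modifiers fall on both sides of it.

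The proteases that cut ATG8 proteins and release them from membranes were also divided. Atg4b, the gene of the broadest and best studied member, had 11.4 FPKM with anti-CD40 and 14.3 FPKM with IgG, 1.26-fold lower (interval 1.15 to 1.37). Atg4d had 10.0 FPKM with anti-CD40 and 8.44 FPKM with IgG, 1.19-fold higher (interval 1.09 to 1.30). Atg4b made up 46.6% of the summed FPKM of the 4 genes with anti-CD40 and 54.8% with IgG, and Atg4d 41.1% and 32.3%. Atg4c had 0.695 FPKM with anti-CD40 and 1.43 FPKM with IgG, 2.06-fold lower (interval 1.38 to 3.02), the widest ratio among the autophagy genes, resting on about 43 and 79 fragments. On the log2(FPKM + 1) scale it comes to -0.52, short of 1.5-fold. Atg4a had 2.30 FPKM with anti-CD40 and 1.94 FPKM with IgG (FPKM ratio 1.18, interval 0.881 to 1.62), a value that is uncertain because 96.0% of its transcript matches the copy Atg4a-ps.

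The ATG8 modifiers were dominated by Gabarap. It had 697 FPKM with anti-CD40 and 787 FPKM with IgG, 1.13-fold lower (interval 1.11 to 1.15), which placed it at percentile 98.8 of counted genes by level with anti-CD40 and 98.9 with IgG. Per length, this 1 gene held 77.3% of the summed FPKM of the family with anti-CD40 and 79.9% with IgG. Gabarapl1 had 82.9 FPKM with anti-CD40 and 67.2 FPKM with IgG, 1.23-fold higher (interval 1.15 to 1.32), and Gabarapl2, known also as GATE-16, had 28.9 FPKM with anti-CD40 and 23.1 FPKM with IgG, 1.25-fold higher (interval 1.14 to 1.38). Both relatives were thus higher with anti-CD40 while Gabarap was lower. The share of Gabarapl1 in the family was 9.19% with anti-CD40 and 6.82% with IgG.

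The LC3 genes lay apart in the same manner. Map1lc3a (chr2:155276364-155278073) had 53.9 FPKM with anti-CD40 and 75 FPKM with IgG, 1.39-fold lower (interval 1.29 to 1.5), a log2 ratio of -0.47 at percentile 4.09 of all counted genes. Map1lc3b (chr8:121590438-121598760), the source of the LC3B protein used as the common marker of autophagosomes, had 39.2 FPKM with anti-CD40 and 32.5 FPKM with IgG, 1.21-fold higher (interval 1.13 to 1.29). Map1lc3b therefore stood at 0.727 times the level of Map1lc3a with anti-CD40 and 0.434 times with IgG. The sum of the 2 LC3 genes was 93.2 FPKM with anti-CD40 and 108 FPKM with IgG, a ratio of 0.866, and that of the 3 GABARAP genes was 809 and 877 FPKM, a ratio of 0.921. Although 3 of the 5 genes were higher with anti-CD40 (67.8% of all counted genes), the summed level of the family was lower, at 902 against 985 FPKM. Without Gabarap, the other 4 genes summed to 205 FPKM with anti-CD40 and 198 FPKM with IgG, a ratio of 1.04.

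**Figure D4:**
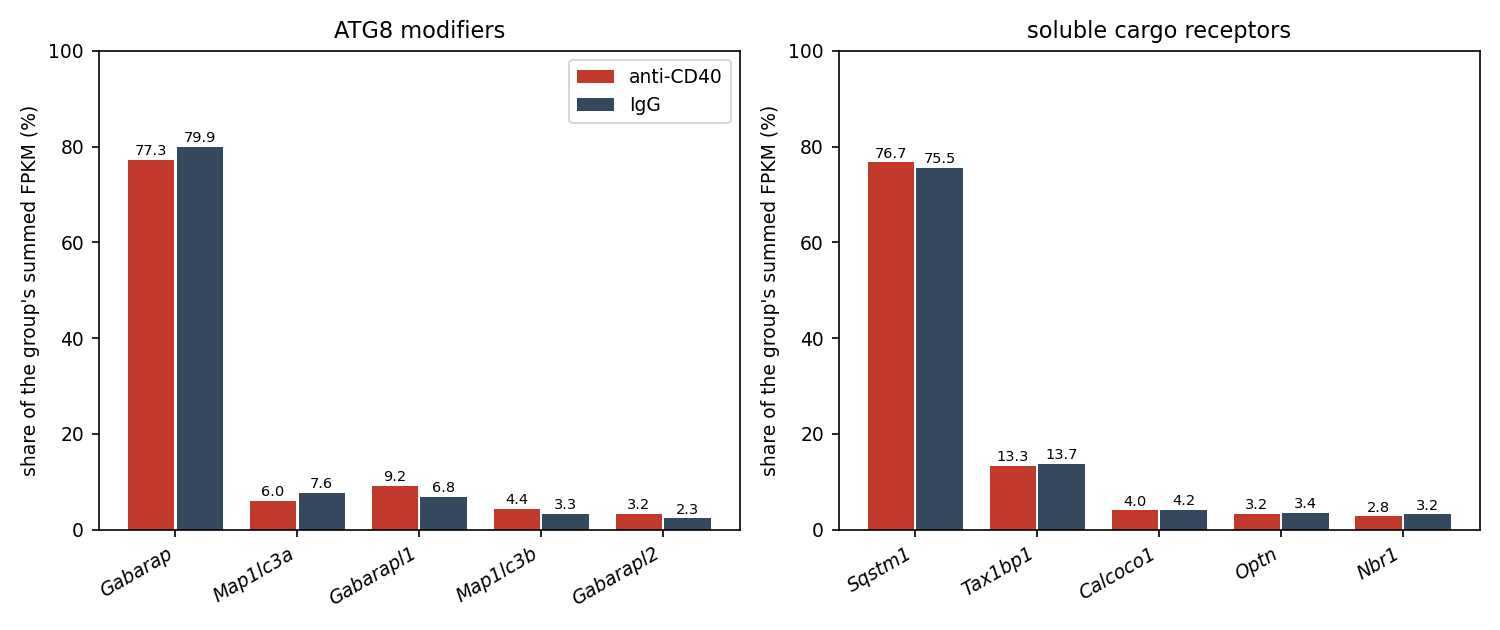
Share of each gene in the summed FPKM of the ATG8 modifiers (left) and of the soluble cargo receptors (right) with anti-CD40 and with IgG, 1 library each. Gabarap holds 77.3% and 79.9% of its family, and Sqstm1 holds 76.7% and 75.5% of the receptors.

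The soluble cargo receptors were the 1 role in which every gene had both a log2 ratio above the all-gene median and an interval above 1. Of all counted genes, 50% lay above that median, and 40.1% of those with a length had such an interval. This describes the 5 genes named by the rule, without a test. In the list of other selective autophagy genes below, 5 of 13 counted genes lay above that median. Tollip (log2 ratio 0.05) and Ncoa4 (0.11) of that list did not, and were named after their values were seen. Sqstm1 (chr11:50200152-50210820), which encodes the ubiquitin-binding receptor p62 and is itself degraded by autophagy, had 192 FPKM with anti-CD40 and 145 FPKM with IgG, 1.33-fold higher (interval 1.28 to 1.37). It was the second most abundant autophagy gene, and its log2 ratio of 0.41 lay at percentile 90.0 of all counted genes. Tax1bp1, a receptor that also limits NF-kB signalling with A20, had 33.4 FPKM with anti-CD40 and 26.3 FPKM with IgG, 1.27-fold higher (interval 1.19 to 1.36). Calcoco1, a receptor for the endoplasmic reticulum and Golgi, had 10.1 FPKM with anti-CD40 and 8.01 FPKM with IgG, 1.25-fold higher (interval 1.10 to 1.42). The remaining receptors differed by less. Optn, the gene of optineurin, had 8.03 FPKM with anti-CD40 and 6.59 FPKM with IgG, 1.22-fold higher (interval 1.05 to 1.41), and Nbr1, a relative of p62, had 6.94 FPKM with anti-CD40 and 6.12 FPKM with IgG, 1.13-fold higher (interval 1.01 to 1.27). Only the intervals of Sqstm1 and Tax1bp1 lay wholly above the all-gene median ratio.

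Summed, the receptors had 251 FPKM with anti-CD40 and 192 FPKM with IgG, a ratio of 1.31, while the makeup of the group was nearly the same. Sqstm1 accounted for 76.7% with anti-CD40 and 75.5% with IgG. Set against the ATG8 genes, Sqstm1 stood at 4.90 times Map1lc3b with anti-CD40 and 4.45 times with IgG. Protein amounts and autophagic flux were not measured.

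The mitophagy receptors, membrane proteins that bind ATG8 proteins from the mitochondrial surface and are induced by hypoxia, lay apart. Bnip3 had 3.57 FPKM with anti-CD40 and 2.57 FPKM with IgG, 1.39-fold higher (interval 1.05 to 1.85). Bnip3l, also called NIX, was more abundant and had 18.9 FPKM with anti-CD40 and 19.7 FPKM with IgG (FPKM ratio 0.958, interval 0.884 to 1.04). Bnip3 supplied 15.9% of the pair's summed FPKM with anti-CD40 and 11.5% with IgG. Matching copies make the Bnip3 value uncertain, since 94.2% of its transcript matches other annotated genes at 95% identity or more, and for Bnip3l the share was 34.9%, with Bnip3l-ps.

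The strand setting of the counting is not given in the sources used here. Of the 40 genes, 10 overlap an exon of another measured gene on the opposite strand, so reads of the partners may not be told apart. Small RNA genes and genes without a deposited value were left out of that count. Gm49004, a gene of the antisense type without a deposited value, matched 6.44% of the Atg14 transcript. Sqstm1 overlaps Mrnip, which had 2.18 FPKM with anti-CD40 and 2.52 FPKM with IgG. Map1lc3b overlaps Zcchc14 (0.372 FPKM with anti-CD40 and 0.190 FPKM with IgG) and Becn1 overlaps Cntd1 (0.342 FPKM with anti-CD40 and 0.241 FPKM with IgG). These partners were scarce next to the autophagy gene. Partners of like or higher level were found for Atg9a, with Ankzf1 at 12.3 FPKM with anti-CD40 and 15.7 FPKM with IgG, for Atg4d, with Kri1 at 13.2 FPKM with anti-CD40 and 13.3 FPKM with IgG, and for Atg2b, with Gskip at 7.52 FPKM with anti-CD40 and 6.40 FPKM with IgG. Matching stretches of at least 100 bases at 95% identity in transcripts of other genes were found for 16 of the 40, covering over 0.5 of the transcript for Atg4a and Bnip3. The share was 47.0% for Becn1, 44.6% for Atg9a, 20.9% for Gabarapl2 and 19.4% for Map1lc3b. For Map1lc3b the matches lay in 63 other genes. Of these, 50 had deposited values, which summed to 341 FPKM with anti-CD40 and 382 FPKM with IgG over whole genes. Uvrag matched 69 other genes over 6.69% of its transcript. Of those, 11 had deposited values, summing to 47.0 FPKM with anti-CD40 and 48.4 FPKM with IgG. This search was not limited by strand or locus, so it counted some overlapping partners again. For Becn1, Atg4d, Atg2b, Atg9b, Gabarapl1 and Rb1cc1, the only matching gene was the partner on the opposite strand, and no copy elsewhere was found. The part of overlaps and copies in the values was not tested.

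Log2 ratios of all genes varied with the GC content of the transcript, and the same was looked at in the autophagy genes. Over the lowest GC quartile of counted genes the median was 0.16, and over the highest it was 0.01. The autophagy genes in those quartiles had medians of 0.23 (12 genes) and -0.02 (7 genes). Map1lc3a had the highest GC content of the 40, at 63.1%, and Atg5 stood at 44.6%. Relative to the median, the log2 ratio before and after removing the trends on GC content and length was -0.59 and -0.43 for Map1lc3a. It was -0.47 and -0.43 for Atg7 and -0.64 and -0.69 for Atg4c. For Atg5 it was 0.35 and 0.29, for Sqstm1 0.28 and 0.33, and for Gabarapl1 0.18 and 0.26. Each of these 6 genes kept its side of the median, but Map1lc3a no longer lay 1.5-fold below it. Among the soluble receptors, Nbr1 came to -0.01 after removal, while Tax1bp1 stayed above 0 at 0.17, Calcoco1 at 0.24 and Optn at 0.10. Atg2a went from -0.25 to -0.13 relative to the median. Without centring, its log2 ratio went from -0.13 to -0.0043, close to equality. Removing these trends was chosen after seeing the data.

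**Figure D5:**
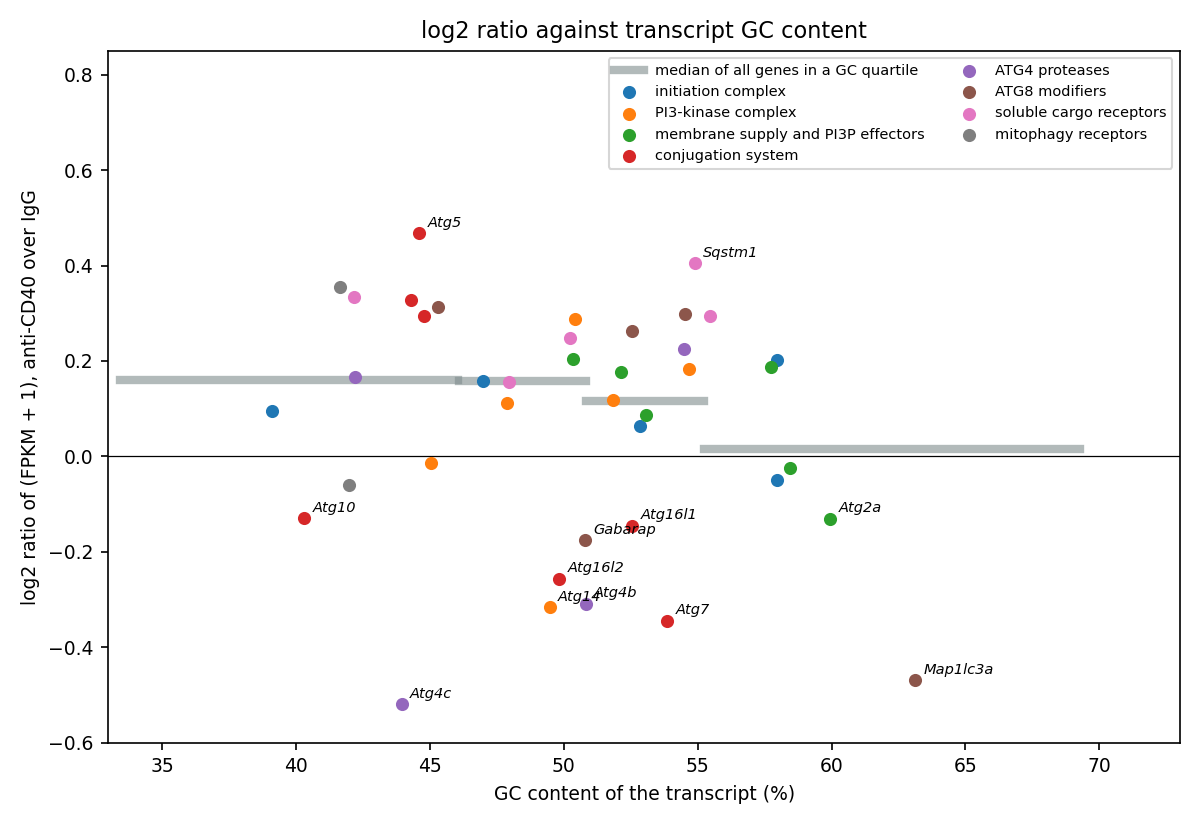
Log2 ratio of (FPKM + 1), anti-CD40 over IgG, against the GC content of the transcript (%), for the 40 autophagy genes coloured by role. Grey bars are the all-gene medians in GC quartiles, 0.16 in the lowest and 0.01 in the highest; Map1lc3a lies far below its quartile median at -0.47, and Sqstm1 far above at 0.41.

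Promoters were searched because autophagy and lysosome genes are known targets of the transcription factors TFEB and TFE3, which bind E-boxes of the CLEAR type. The windows run from 250 bases before to 50 after a RefSeq start (GRCm38.p6), and 33 of the 40 genes have at least 1. The letters CACGTG, which read the same on both strands, occur in 5 of 37 windows of autophagy genes (13.5%) and in 7.15% of all 32851 windows. They were found for Atg3, Atg5, Atg7, Atg14 and Bnip3, and the Atg7 window lies at a start inside the gene. Of these, Atg3, Atg5 and Bnip3 were higher with anti-CD40 and Atg7 and Atg14 lower, so holders of the letters lay in both directions. The windows of Atg3, Atg5 and Atg14 are shown, 5′ to 3′ on the strand of the gene, with CACGTG in capitals, as examples from both directions.
Atg3 (chr16:45158579-45158878, plus strand): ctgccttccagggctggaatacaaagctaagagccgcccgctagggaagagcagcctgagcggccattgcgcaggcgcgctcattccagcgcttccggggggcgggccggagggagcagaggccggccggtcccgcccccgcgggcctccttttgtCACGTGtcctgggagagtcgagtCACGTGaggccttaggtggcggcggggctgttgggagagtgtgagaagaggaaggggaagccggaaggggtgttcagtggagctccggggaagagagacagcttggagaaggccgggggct
Atg5 (chr10:44268089-44268388, plus strand): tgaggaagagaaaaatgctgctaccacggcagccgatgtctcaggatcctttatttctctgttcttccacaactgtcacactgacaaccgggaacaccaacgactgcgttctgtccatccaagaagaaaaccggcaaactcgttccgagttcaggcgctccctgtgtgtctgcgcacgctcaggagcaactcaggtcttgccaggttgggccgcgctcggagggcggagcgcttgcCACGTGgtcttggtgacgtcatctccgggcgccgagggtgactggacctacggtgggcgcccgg
Atg14 (chr14:47568385-47568684, minus strand): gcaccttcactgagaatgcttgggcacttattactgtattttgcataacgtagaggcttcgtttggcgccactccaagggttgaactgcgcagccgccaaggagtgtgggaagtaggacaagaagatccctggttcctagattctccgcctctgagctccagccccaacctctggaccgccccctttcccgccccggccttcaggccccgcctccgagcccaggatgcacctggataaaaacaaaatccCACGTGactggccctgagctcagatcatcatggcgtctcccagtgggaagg
Atg3 holds the letters at 2 positions, 1 of them within TCACGTGA, which occurs in 0.974% of all windows and in no further window of an autophagy gene. The antioxidant response letters TGACNNNGC, searched on both strands, occur for Atg13, Map1lc3b, Tax1bp1 and Ulk2 (10.8% of windows against 12.4% of all). AP-1 letters TGANTCA occur in 0 windows, against 7.81% of all, and cAMP response letters TGACGT in 8 (21.6% against 7.51%). TGACGT can overlap TGACNNNGC. A match is a run of letters and not a bound site.

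Further genes of the pathway were taken from lists set by function, and 1.5-fold counts for these lists are again on the log2(FPKM + 1) scale. Counts above the all-gene median stand against 50% of all genes by construction. Of other genes of autophagosome formation, 13 of 15 reached 1 FPKM. Among these, 0 were 1.5-fold higher (2.68% of all genes) and 0 were 1.5-fold lower (2.15%). In that list 7 genes lay above the all-gene median, and the list median was 0.14. Wdr45b, a relative of the WIPI genes, had 15.2 FPKM with anti-CD40 against 11.4 FPKM with IgG, 1.34-fold higher (interval 1.2 to 1.51). Nrbf2, a subunit of the ATG14 form of the lipid kinase, had 3.91 FPKM with anti-CD40 against 2.78 FPKM with IgG. Tbc1d14, a regulator of recycling endosomes that feed the membrane, had 5.39 FPKM with anti-CD40 against 3.96 FPKM with IgG. Lower values with anti-CD40 were seen for Rubcnl, a UVRAG partner also called Pacer, with 2.91 FPKM with anti-CD40 against 4.18 FPKM with IgG. Vmp1, a lipid scramblase of the endoplasmic reticulum, had 22.7 FPKM with anti-CD40 against 24.6 FPKM with IgG, and Zfyve1, which marks sites of autophagosome formation, had 3.97 FPKM with anti-CD40 against 4.19 FPKM with IgG.

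Of genes for fusion with lysosomes, 14 of 14 were counted, 0 were 1.5-fold higher (2.68% of all genes) and 0 were 1.5-fold lower (2.15%). Above the all-gene median lay 6, with a list median of 0.08. SNARE proteins, which drive membrane fusion, were found at both ends. Vamp8 had 378 FPKM with anti-CD40 against 537 FPKM with IgG, 1.42-fold lower (interval 1.37 to 1.47), the lowest log2 ratio of the list. Ykt6 had 25.2 FPKM with anti-CD40 against 18.4 FPKM with IgG, 1.37-fold higher (interval 1.25 to 1.49), the highest. The SNARE gene Snap29 had 5.26 FPKM with anti-CD40 against 4.34 FPKM with IgG, and Vps11, a subunit of the HOPS tether, had 18.7 FPKM with anti-CD40 against 15.1 FPKM with IgG. On the lower side, Bloc1s1, a subunit of a lysosome-positioning complex, had 131 FPKM with anti-CD40 against 146 FPKM with IgG. The tether gene Tecpr1 had 73.7 FPKM with anti-CD40 against 80.9 FPKM with IgG.

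Of other selective autophagy genes, 13 of 16 were counted, 0 were 1.5-fold higher (2.68% of all genes) and 0 were 1.5-fold lower (2.15%). Above the all-gene median lay 5, with a list median of 0.05. Receptors for the endoplasmic reticulum lay on both sides. Retreg1, also called FAM134B, had 10.8 FPKM with anti-CD40 against 8.86 FPKM with IgG, whereas Ccpg1 had 18.7 FPKM with anti-CD40 against 23.3 FPKM with IgG and Sec62 had 7.40 FPKM with anti-CD40 against 8.46 FPKM with IgG. Pink1, the kinase that marks damaged mitochondria, had 39.5 FPKM with anti-CD40 against 34.8 FPKM with IgG. Wdfy3, a scaffold for protein aggregates, had 2.33 FPKM with anti-CD40 against 1.94 FPKM with IgG. Fkbp8, a mitochondrial receptor, had 155 FPKM with anti-CD40 against 175 FPKM with IgG.

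Among nutrient-sensing kinases and their regulators, 21 of 24 were counted. On the log2(FPKM + 1) scale, 0 were 1.5-fold higher (2.68% of all genes) and 1 was 1.5-fold lower (2.15%). Above the all-gene median lay 12, with a list median of 0.18. The gene past 1.5-fold on that scale was Tsc2, a brake on the autophagy-suppressing kinase complex mTORC1, with 10.1 FPKM with anti-CD40 against 15.7 FPKM with IgG, 1.55-fold lower (interval 1.44 to 1.67). Fnip1, a folliculin partner, had 4.15 FPKM with anti-CD40 against 5.61 FPKM with IgG, and Mlst8, a subunit of mTORC1, had 7.17 FPKM with anti-CD40 against 7.76 FPKM with IgG. By the ratio of FPKM, 2 scarce genes of mTORC1 inhibitors were also past 1.5-fold, with the higher level under anti-CD40 and intervals that reach below 1.5. Ddit4 had 1.5 FPKM with anti-CD40 against 0.734 FPKM with IgG, 2.04-fold higher (interval 1.24 to 3.45). Sesn2 had 1.60 FPKM with anti-CD40 against 0.877 FPKM with IgG, 1.82-fold higher (interval 1.31 to 2.53). The AMPK subunit gene Prkag1 had 14.5 FPKM with anti-CD40 against 10.5 FPKM with IgG.

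Of transcription factors tied to autophagy genes, 12 of 12 were counted, 9 lay above the median (list median 0.22), and on the log2(FPKM + 1) scale 1 was 1.5-fold higher and 0 were 1.5-fold lower. Tfeb itself had 45.7 FPKM with anti-CD40 and 51.1 FPKM with IgG, 1.12-fold lower (interval 1.05 to 1.19). Its 3 relatives lay on the other side of 1. Tfe3 had 26.0 FPKM with anti-CD40 and 19.8 FPKM with IgG, 1.31-fold higher (interval 1.22 to 1.42). Mitf had 4.64 FPKM with anti-CD40 and 3.86 FPKM with IgG, 1.2-fold higher (interval 1.04 to 1.39), and Tfec had 5.81 FPKM with anti-CD40 and 3.81 FPKM with IgG, 1.53-fold higher (interval 1.22 to 1.92). Tfe3 and Mitf were named after their values were seen. Nfe2l2, the gene of NRF2, which is known to act on Sqstm1 and is stabilised by p62, had 64.0 FPKM with anti-CD40 and 47.9 FPKM with IgG, 1.34-fold higher (interval 1.27 to 1.41). Cebpb was the gene past 1.5-fold on that scale, at 111 FPKM with anti-CD40 and 72.3 FPKM with IgG. Ddit3 was the lowest of the list, at 87.1 FPKM with anti-CD40 and 129 FPKM with IgG, and Zkscan3, a repressor of autophagy genes, had 6.12 FPKM with anti-CD40 and 5.60 FPKM with IgG.

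The label was checked against markers. All 8 macrophage markers were detected, with sums of 15218 FPKM with anti-CD40 and 12921 FPKM with IgG. Most of each sum was Lyz2, at 13423 FPKM with anti-CD40 and 11326 FPKM with IgG. By FPKM, 6 of the 8 were higher with anti-CD40 (67.8% of all counted genes) and 2 lower (32.2%). The T cell markers measured (3 of 3) were listed at 0 in both libraries. Summed markers of B cells came to 1.23 and 0.978 FPKM with anti-CD40 and IgG, of neutrophils to 1.90 and 1.24, of dendritic cells to 0.142 and 0.0435, and of fibroblasts to 1.18 and 0.504. The erythroid marker Hba-a1 had 1.18 FPKM with anti-CD40 and 2.91 FPKM with IgG. Ly6g, S100a9 and Mpo of the 6 neutrophil markers and Flt3 of the dendritic cell markers were listed at 0 in both libraries. The part of these traces in the autophagy genes' values was not tested. In bulk RNA, fewer cells of a type and less RNA per cell cannot be told apart.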

How the data were processed

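The deposited table of the authors holds 1 value for each gene in each library, read here as FPKM because the submitters' processing notes name StringTie and the columns sum to 529104 (anti-CD40) and 547362 (IgG). The header names no unit. Those notes also name HISAT2 2.1.0 and mm10, whereas annotation, strand setting and filters are not given there. RNA was isolated with TRIzol and 1.3 ug went into each TruSeq library, per the labels' protocols. Columns were assigned by name, with 0 columns of per-sample values left unused.

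For 64 (anti-CD40) and 34 (IgG) low genes with a single exon, FPKM times length came out as a whole multiple of a step for 75% and 88.2%, within 0.05 steps. Taking a step as 0.5 of an aligned base, the libraries hold 6.16 and 5.58 gigabases, or 20.5 and 18.6 fragments of 300 bases per FPKM and kilobase. Fragments per gene used the median length of the principal GENCODE M21 transcripts. Ratio intervals are 95% exact conditional binomial intervals, which rest on these assumptions. Log2 ratios used a pseudocount of 1 FPKM and genes that reached 1 FPKM in at least 1 library. They understate differences of low genes, whereas folds are ratios of FPKM.

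Members and lists were chosen with earlier results of these data known. All members are named, and of each list the 3 genes with the highest and the 3 with the lowest log2 ratio. Overlapping partners and copies were named after values were seen. Copies were sought with blastn 2.17.0 (95% identity, 100 bases), and trends were removed by lowess (span 0.3, statsmodels 0.14.6). GC content and length covered 97.2% of counted genes and 40 of 40 members. Coordinates and promoters are from RefSeq (GRCm38.p6). The calculation was tested on simulated data. No gene list was tested. Alternatives were pseudocounts of 0.1 and 5 FPKM, centring, 3 rescalings, no filter and a filter at 5 FPKM.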

Additional observations from a re-analysis of the deposited data

How the results depend on the processing

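Across 9 alternatives, 0 autophagy genes were 1.5-fold higher or 2-fold apart. The count of genes 1.5-fold lower was 1 with a pseudocount of 0.1 FPKM (Atg4c, -0.94), 2 after centring on the all-gene median (Atg4c at -0.64 and Map1lc3a at -0.59, against 4.23% of all genes) and 1 after rescaling to equal, TPM-like sums (Atg4c). It was 0 otherwise. The median log2 ratio of the autophagy genes ran from 0.04 (centred) to 0.22 (TPM-like sums), and the number above the all-gene median from 15 (filter at 5 FPKM, which leaves 28 genes) to 26 (no filter). Centring turned Atg13, Pik3c3, Pik3r4, Rb1cc1 and Wipi2 below 0, upper-quartile rescaling turned Atg13 and Wipi2, rescaling to equal sums turned Becn1 and Atg9b above 0, and removing trends on GC content and length, an alternative chosen after seeing the data, turned Atg101 and Atg9b. The causes were not tested. No paired analysis was possible because each group has 1 library. For Atg4c, Atg10, Wipi1, Bnip3, Atg4a and Atg9b, the number of fragments limits the precision.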
